A study of Mus musculus with 32 samples.

Results

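The comparison set gastrocnemius muscle of mice that had received AICAR for 7 or 14 days, pooled as 8 arrays, against muscle of mice that had received it for 3 days, on 4 arrays. These 12 of the series' 32 arrays were chosen by tissue and duration alone. All mice were 23-month-old C57BL/6J females, injected intraperitoneally with AICAR in saline at 500 mg/kg/day. Mice were perfused with salt solution and their muscle removed when 33 days had passed since the final dose. A further 4 muscle arrays came from mice given vehicle for 3 days. No group received vehicle for 7 or 14 days, so days of drug and days of injection cannot be told apart. The labels do not say which mouse each array came from, so p-values measure only the spread between these arrays, which may be technical. The question was how muscle RNA differs, a month after dosing has ended, between a short and a longer course of the same drug.

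AICAR is taken up by cells through nucleoside transporters and phosphorylated by adenosine kinase to ZMP, an intermediate of purine synthesis that mimics AMP at the energy sensor AMPK. In skeletal muscle, active AMPK promotes glucose uptake and fatty acid oxidation and acts through coactivators such as PGC-1 alpha on genes of mitochondria and slow, oxidative fibres. For this reason the compound has been used in mice to imitate part of the response to endurance training.

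The arrays carried the markers of skeletal muscle. The 12 listed muscle genes, among them Acta1, Ckm, Myh4, Tnnt3 and Pvalb, were all detected, and their summed log2 signal lay between 18.69 and 18.85 on the 12 AICAR arrays. Of the neuron and glia list 7 of 10 genes and of the lymphocyte list 11 of 12 had no tested probe. Between 11695 and 12268 probes were detected on each AICAR array, and arrays of a group correlated at 0.9892 to 0.9934. Background intensity, the median of probes with a detection p above 0.5, was 119 ± 3.7 (SD, n = 4) at 3 days, 164 ± 4.7 at 7 days, 147.4 ± 5.5 at 14 days and 129 ± 5.3 with saline. The first principal component held 44.9% of the variance and put the 8 longer arrays between 16.37 and 23.66, and the saline and 3-day arrays between -23.51 and -15.8. Sample numbers in the labels ran in separate blocks by treatment (9 to 12 at 3 days, 19 to 22 at 7 days, 4 to 7 at 14 days for muscle), so handling by block and duration cannot be told apart, and the part of background intensity in the results below was not tested. Without background correction 3491 probes passed the threshold, beside 3248 with it. That fit omitted only the background correction and kept the quantile normalization, so the 2 counts do not test the part of the background differences.

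**Figure D1:**
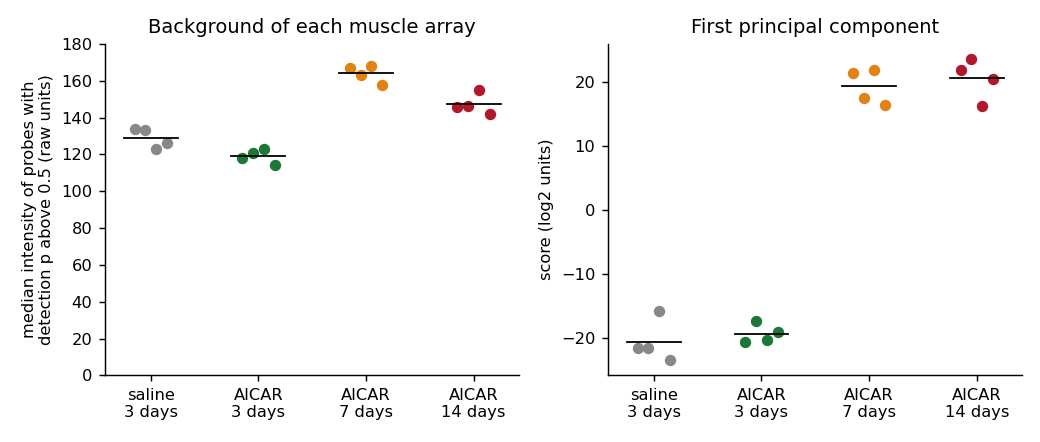
Background intensity (left, raw units) and score on the first principal component (right, log2 units) of the 16 muscle arrays, one point per array with group means as lines. The 7-day and 14-day arrays lie above the saline and 3-day arrays on both, with background of 142.1 or more against 133.6 or less.

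Muscle RNA after 7 or 14 days of AICAR differed widely from that after 3 days, and the large differences were rises. Of 12977 probes tested, 3248 passed the threshold (adjusted p below 0.05), which is 25% of the probes. Of these, 1604 were higher (12.4%) and 1644 lower (12.7%) in the longer groups. This balance varied with the values used: 1582 of 3938 probes were higher with the authors' standardised scores, and 1238 of 2843 under median scaling. Rises were larger than falls: the median change was 0.62 on the log2 scale among higher probes and -0.34 among lower ones, against -0.08 over all probes tested. At 2-fold or more, 363 probes were higher and 2 were lower. With each gene represented by its probe of highest mean signal, 1041 of 9030 genes rose (11.5%) and 1142 fell (12.6%), together 24.2%, and 206 of those that rose did so by 2-fold or more. On 1944 probes (15%) the 8 longer arrays did not overlap the 4 at 3 days, with 1208 above (9.31%) and 736 below (5.67%).

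**Figure D2:**
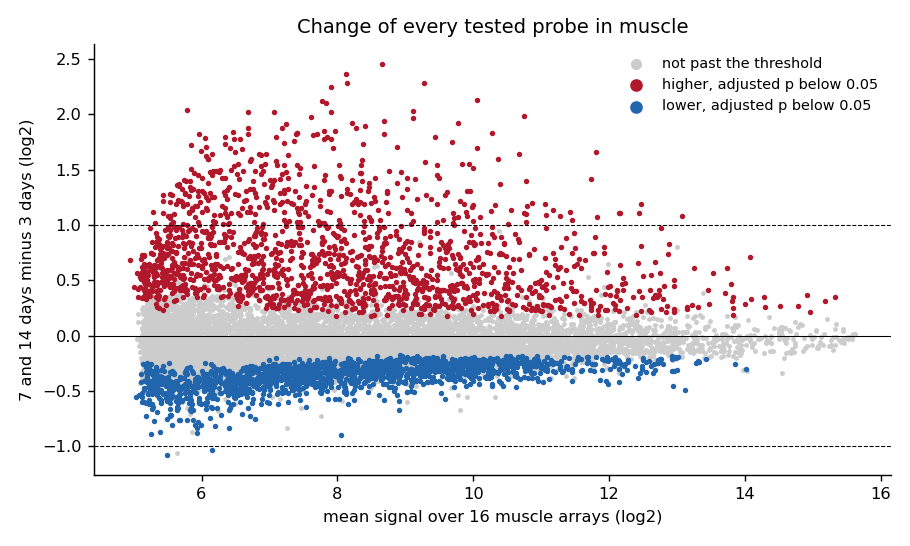
Change of each of the 12977 tested probes (log2, 7 and 14 days minus 3 days) against its mean signal over the 16 muscle arrays (log2), with red and blue points past the threshold and dashed lines at 2-fold. Above the upper dashed line lie 363 red points and below the lower one 2 blue points.

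The change was already present at 7 days. Against 3 days, 2368 probes (18.2%) passed at 7 days, 1367 higher (10.5%) and 1001 lower (7.71%). At 14 days 2484 passed (19.1%), 1427 higher (11%) and 1057 lower (8.15%). Both comparisons share the 3-day arrays. With the authors' standardised scores in place of the recomputed values, 1348 of 3126 probes were higher at 7 days and 1433 of 2986 at 14 days, so at both times whether rises or falls prevailed varied with the values used. Between 14 and 7 days, limma called 0 of 12977 probes (0%), with 631 at an unadjusted p below 0.05 and a smallest adjusted p of 0.361. Among the 3248 probes of the pooled comparison, the median size of the difference between 14 and 7 days was 0.08, beside 0.42 for the longer groups against 3 days. The 5 probes with the smallest p between 14 and 7 days were those of Mlx, Cryz, Ccdc115, Itpr3 and Lins1, none past the threshold. Mlx, the partner of the carbohydrate-sensing factor ChREBP, had the widest gap of these. It stood at 5.4, 5.05, 5.02 and 5 on the 3-day arrays, at 5.43, 5.56, 5.84 and 5.09 at 7 days and at 6.47, 6.2, 6.36 and 6.19 at 14 days, so the 14-day arrays lay above the other 8.

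The largest rises came from genes of varied function. Gng5, a gamma subunit of heterotrimeric G proteins, read 8.39, 8.39, 7.97 and 7.86 on the 3-day arrays and from 10.2 to 10.58 (median 10.45) on the longer ones. Its change was 2.28 ± 0.12 (log2, SE), or 4.85-fold, with an adjusted p of 1.06e-09. All 8 longer arrays lay above all 4 arrays at 3 days, and the 4 saline arrays, at 7.69 to 8.21, lay with the latter. Mxi1, a MAX-binding repressor that opposes MYC, read 6.57, 6.79, 6.7 and 7.07 at 3 days and from 8.7 to 9.05 (median 8.88) in the longer groups, a rise of 2.10 ± 0.09 (adjusted p = 3.56e-10). Its groups did not overlap either, and saline stood at 6.65 to 6.92. Ywhae, the epsilon form of the 14-3-3 adaptor proteins, rose by 2.02 ± 0.14, and Usp25, a deubiquitinating enzyme, by 1.98 ± 0.14. These 4 genes had a single tested probe each.

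For most of the other large rises a second probe of the same gene did not show the change. Zfand6, which encodes an AN1-type zinc finger protein, rose by 2.28 ± 0.12 on the probe that the naming rule selected, while its other probe gave -0.05 ± 0.08 (adjusted p = 0.677). Ndufa5, an accessory subunit of respiratory complex I, rose by 2.13 ± 0.08 on a probe that read 8.83, 9.14, 8.88 and 8.97 at 3 days and 10.91 to 11.19 later. Its other probe read 13.97, 14.15, 14.11 and 14.05 at 3 days and 13.92 to 14.22 later, a difference of 0.01 ± 0.07. Pdlim5, a PDZ and LIM domain protein of the Z disc, rose by 2.25 ± 0.13 on one probe and gave 0.05 to 0.11 on 3 others. Ubac1, a subunit of a ubiquitin ligase complex, rose by 2.03 ± 0.10, with -0.11 and 0.08 on its other probes. Lypla1, an acyl-protein thioesterase, rose by 2.02 ± 0.09, with 0.12 ± 0.20 on the other.

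Several genes changed the same way on more than one probe. Myh1, the heavy chain of fast type IIx myosin, had the largest change of all, 2.46 ± 0.23 on one probe, and its other probe also rose, by 0.74 ± 0.17 (adjusted p = 0.00457). The first read 7.34, 7.52, 7.66 and 7.16 at 3 days and 9.04 to 10.74 later, without overlap, and the second 12.55, 12.88, 12.41 and 12.29 at 3 days and 12.74 to 13.83 later, with overlap. Trip12, a HECT-type ubiquitin ligase, rose by 2.12 ± 0.12, and by 0.43 and 0.47 on its other probes. Ktn1, the kinesin receptor kinectin, rose by 2.02 ± 0.14 on one probe and at least 1.06-fold on another that was not well above background at 3 days, and a further probe gave -0.05.

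The same split held across the large rises. Of the 363 probes higher by 2-fold or more, 339 carried a gene symbol: 172 were the only tested probe of their gene and 167 had at least 1 other. For 57 of these 167, another probe of the gene also passed upward, for 8 another passed downward, and for 102 no other probe passed. For 133 of the 167, the brightest other probe had a higher signal than the rising one. That brighter probe passed upward for 38, passed downward for 4 and did not pass for 91. Its median change was 0.03. Only 5 genes with more than 1 tested probe were higher by 2-fold or more on every one of them. These 5 were named after their values were seen: Nampt (1.43 and 1.46), Psmd6 (1.54 and 1.71), Rab10 (1.13 and 1.53), Nr1d2 (1.08) and Metap2 (1.22). The dimmer probes of Nr1d2 and Metap2 were not well above background on any 3-day array, so they give only bounds, at least 2.52-fold for Nr1d2 and at least 1.65-fold for Metap2. Over the 2331 genes with several tested probes, the changes of the 2 probes of highest signal correlated at 0.27 across genes, which are not independent replicates. In 213 pairs both probes passed, and 187 of these pairs agreed in direction. Which transcript region each probe reads is not given in the sources used here, and its part in the split was not tested.

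**Figure D3:**
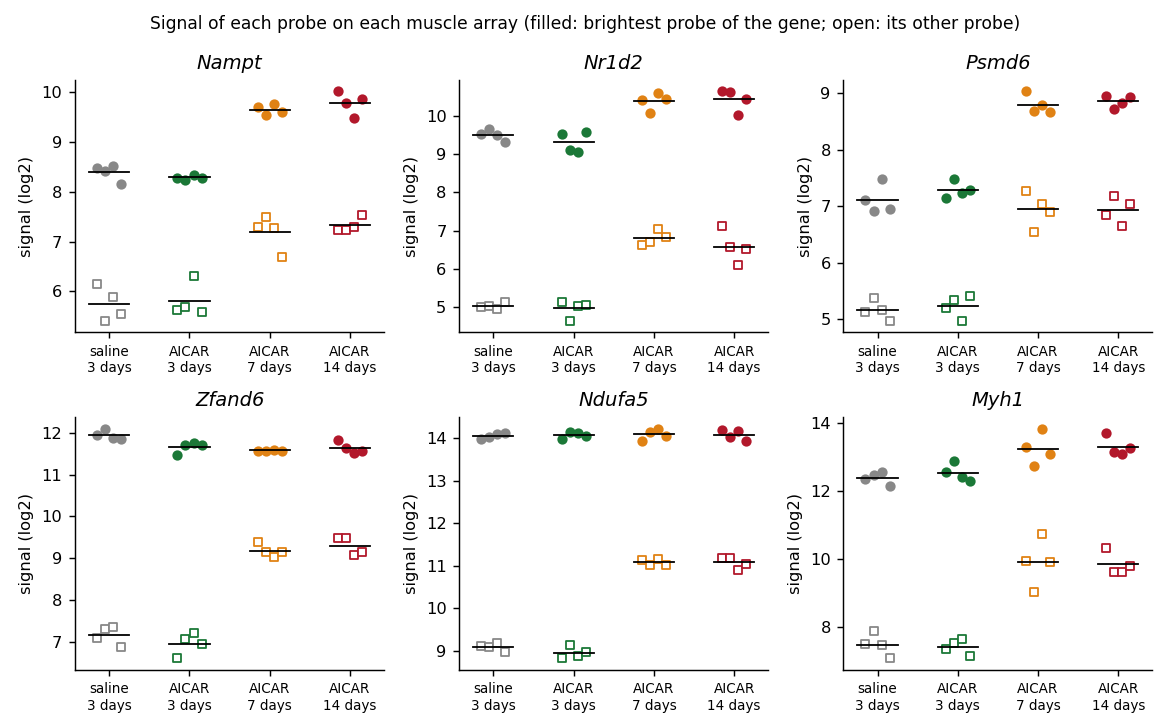
Signal (log2) of each tested probe of 6 genes on each of the 16 muscle arrays, with filled circles for the probe of highest mean signal, open squares for the other probe and lines for group means. Both probes of Nampt, Nr1d2 and Psmd6 rise, whereas for Zfand6 and Ndufa5 only the open squares do and for Myh1 the squares rise by more (2.46) than the circles (0.74).

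Falls were smaller and their genes were also of mixed function. Xrn1, the cytoplasmic 5′ to 3′ exoribonuclease, read 6.53, 6.58, 6.63 and 6.59 at 3 days and from 5.41 to 6.11 (median 5.77) in the longer groups. It fell by 0.82 on the log2 scale (SE 0.11, adjusted p = 1.82e-05), with saline at 6.55 to 6.84 beside the 3-day arrays. Spon2, a secreted matrix protein, had the largest fall named by the rule, -0.90 ± 0.20, from 8.14, 8.96, 8.78 and 8.4 to between 7.12 and 8.09. Its 3-day arrays stood just above the longer ones, and saline, at 7.94 to 8.82, overlapped both. Tmem131l changed by -0.88 ± 0.15 and Traf4, an adaptor of the TNF receptor-associated factor family, by -0.87 ± 0.15, with 0 and -0.44 on its other probes. Mepce, which caps the 7SK RNA, was not well above background on any longer array. It was at least 1.33-fold lower there (measured means 5.78 and 4.9), a bound taken from the lowest signal detected on each array. Usp30, a mitochondrial deubiquitinase, was in the same position and at least 1.27-fold lower. The remaining falls named by the rule (Srd5a3, Slc6a2, Fblim1, Sap30bp, Ncdn and Socs7) ranged from -0.83 to -0.75. Other probes of Srd5a3 (-0.30 and -0.15), Ncdn (-0.06 and -0.07) and Socs7 (-0.12) did not pass. The probe with the largest fall of all, -1.08 ± 0.16 for the retinoic acid receptor Rarg, was named after its value was seen, and the other Rarg probe gave 0.04 ± 0.12. The second probe lower by 2-fold or more carries no symbol.

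The counts of gene lists below stand beside 11.5% of all genes rising and 12.6% falling, and many of them changed when 1 array was left out. Genes of AMPK itself moved little and in both directions. Of 9 tested, 2 rose and 3 fell, with a list median of -0.13 beside -0.07 over all genes. Prkab1 and Prkag1, a beta and a gamma subunit, fell by 0.34 ± 0.08 and by 0.31 ± 0.08. Prkab1 read 8.04, 8.02, 8.02 and 7.78 at 3 days and 7.44 to 7.81 later, with overlap at the lowest 3-day array. Camkk2, a kinase upstream of AMPK, changed by -0.29 ± 0.09, a call lost without 3-day replicate 1 (-0.21) or 4 (-0.28). The Camkk2 call was also lost without background correction (-0.11, adjusted p = 0.0637) and with the authors' scores (adjusted p = 0.0562). Map3k7, another candidate upstream kinase, rose by 0.66 ± 0.12. Prkag2, a second gamma subunit, rose by 0.43 ± 0.13, a call lost without 3-day replicate 1 (0.36) or 3 (0.38) and under median scaling (0.41). The catalytic subunit Prkaa2 gave -0.29 ± 0.12 and did not pass (adjusted p = 0.077), but passed without 14-day replicate 2 (-0.34, adjusted p = 0.0406), without background correction and with the authors' scores. It read 12.11, 12.18, 12.13 and 11.92 at 3 days and 11.24 to 12.03 in the longer groups, so the groups overlapped. The other Prkaa2 probe gave 0.02 ± 0.24 (adjusted p = 0.962).

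Of a panel of 6 AMPK and fuel genes 1 passed, as a rise, but 3 rose without 14-day replicate 4 and 2 without 7-day replicate 1. Prkaa2, also of the panel, passed as a fall without 14-day replicate 2 (-0.34). Ppargc1a, the gene of PGC-1 alpha, gave -0.15 ± 0.08 (adjusted p = 0.202), and Slc2a4, the insulin-regulated glucose transporter GLUT4, 0.11 ± 0.06 (adjusted p = 0.221). Pdk4, which restrains pyruvate oxidation, read 12.75, 12.74, 11.93 and 12.25 at 3 days and 11.79 to 14.03 (median 13.23) later. Its difference of 0.80 ± 0.31 did not pass (adjusted p = 0.0725), the 14-day replicate 4 lay below every 3-day array, and saline, at 12.59 to 13.47, lay near the longer arrays. Without that replicate Pdk4 rose by 1 on the log2 scale (adjusted p = 0.00885), without 7-day replicate 1 by 0.91 (adjusted p = 0.0471), and it passed with the authors' scores (adjusted p = 0.0349). Ucp3, the uncoupling protein of muscle mitochondria, gave 0.76 ± 0.32 (adjusted p = 0.091) and had its lowest array in the same replicate, without which it rose by 0.94 (adjusted p = 0.0242). Its other probe passed at 0.98 ± 0.28. Cpt1b, the muscle enzyme that admits fatty acids to mitochondria, rose by 0.35 ± 0.09 on one probe and gave -0.09 ± 0.11 on the other. Under median scaling the first gave 0.26 and did not pass (adjusted p = 0.136). Prkaa1 and Ppard had no tested probe. Among 15 genes of the PGC-1 and MEF2 list, 2 rose (13.3%, near the share of all genes) and 3 fell. Falls numbered 1 without 3-day replicate 1, 3 or 4 or 14-day replicate 2, and 4 without 3-day replicate 2. Nrip1, a corepressor of oxidative genes, was not well above background on any 3-day array and rose at least 1.55-fold. Polrmt, the mitochondrial RNA polymerase, fell by 0.33 ± 0.06. Tfam, the mitochondrial transcription factor (0.20 ± 0.07), and Ppargc1b, the PGC-1 beta gene (-0.38 ± 0.12), passed narrowly. The other Tfam probe gave 0.13 ± 0.07 and did not pass. Tfam lost its call (0.16 to 0.21) without any 1 of the 3-day arrays, 7-day replicates 1 and 2 or 14-day replicates 3 and 4, and under median scaling (0.12). With the authors' scores Tfam did not pass either (adjusted p = 0.0513). Ppargc1b lost its call (-0.38 to -0.34) without 3-day replicate 1, 3 or 4, 7-day replicate 2 or 14-day replicate 2 or 4.

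Mitochondrial genes held a minority of members with large rises among many that did not pass. For complex I, 6 of 33 tested genes rose and 1 fell, with a median of -0.03. The 6 were Ndufb4 (1.71 ± 0.10), Ndufb9, Ndufb2, Ndufb5, Ndufab1 and Ndufb10 (0.84 ± 0.10). Ndufb4 read 7.9, 7.94, 8.25 and 8.11 at 3 days and 9.62 to 9.95 later, and saline stood at 7.61 to 8.17. For complexes II to V, 9 of 37 rose and none fell past the threshold, with a median of -0.01. These included Atp5a1, the alpha subunit of ATP synthase (1.66 ± 0.09), Sdhd of complex II (1.52 ± 0.11), and Cox7b of cytochrome oxidase (1.49 ± 0.07). Atp5a1 read 10.93, 11.28, 10.83 and 10.94 at 3 days and 12.47 to 12.86 later, so its groups stood well apart. Both medians lay near that of all genes, -0.07, and under median scaling they were -0.14 and -0.12 beside -0.13, with 4 genes of complex I and 1 of complexes II to V falling. Falls in complex I numbered 0 without 3-day replicate 2 or 4, 2 without 14-day replicate 2 and 3 without 7-day replicate 3, and 1 gene of complexes II to V fell without 3-day replicate 3.

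The citric acid cycle and pyruvate dehydrogenase list had 8 of 23 genes rising and 2 falling, and a median of 0.10. Under median scaling 5 rose and 1 fell, with a median of 0.02, and 1 fell without any 1 of the 3-day arrays, 7-day replicates 2 and 4 or 14-day replicates 1 and 2. Dld, the dihydrolipoamide dehydrogenase shared by several mitochondrial complexes, rose most, by 1.97 ± 0.13, from 8.06, 8.25, 8.02 and 8.01 to between 9.69 and 10.45. Idh2, the mitochondrial NADP-dependent isocitrate dehydrogenase, rose by 1.19 ± 0.16 and Sucla2, a subunit of succinyl-CoA synthetase, by 1.34 ± 0.15. Ogdh, the oxoglutarate dehydrogenase that Dld serves, changed by -0.40 ± 0.07. In fuel uptake and fatty acid oxidation, 4 of 23 rose and none fell past the threshold (2 rose under median scaling). Hadhb and Hadh, enzymes of beta-oxidation, rose by 0.97 ± 0.11 and 0.95 ± 0.15, and Mlycd, which removes the inhibitor malonyl-CoA, by 0.47 ± 0.13, which without 3-day replicate 3 was 0.36 (adjusted p = 0.0758). In glycolysis and glycogen breakdown, the 2 of 16 that rose were both subunits of phosphorylase kinase, Phka1 (0.89 ± 0.08) and Phkb (0.30 ± 0.10). The Phkb call was lost (0.27 to 0.31) without any 1 of the 3-day arrays, 7-day replicates 1 and 3 or 14-day replicates 1 and 4, and under median scaling (0.21), while its dimmer probe rose by 1.53 ± 0.13. The other Phka1 probes gave 1.38 and -0.26, of which the first passed.

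**Figure D4:**
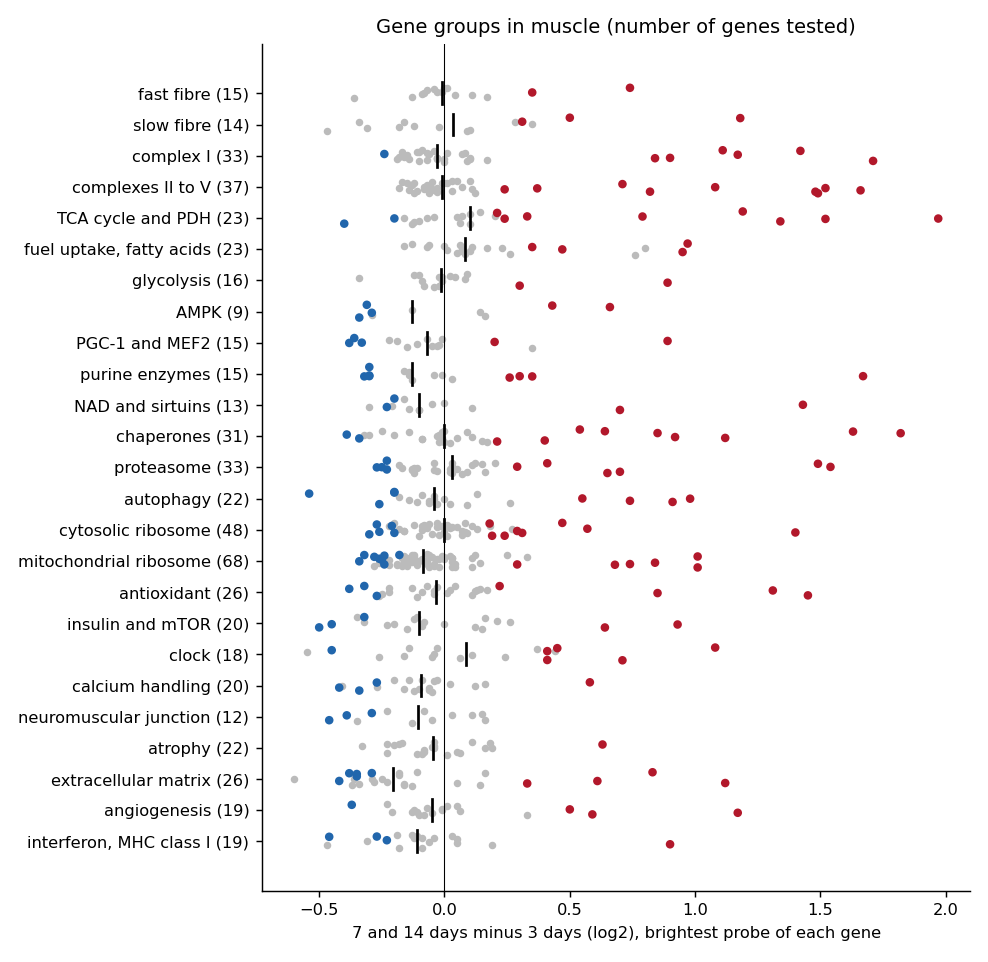
Change of each tested gene (log2, 7 and 14 days minus 3 days, probe of highest mean signal) in 25 gene groups, with the number tested in parentheses, red and blue points past the threshold, grey points short of it and black bars for group medians. Group medians lie between -0.21 (extracellular matrix) and 0.10 (TCA cycle and PDH), while single members reach 1.97 (Dld).

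Contractile genes of the fast list rose at about the share of all genes. Of 15, 2 rose (13.3%), Myh1 and Myh4, the type IIb heavy chain, which read 15.31, 15.19, 15.23 and 14.88 at 3 days and 15.39 to 15.59 later (0.35 ± 0.08). In the slow list 3 of 14 rose (21.4%). Tpm3, the slow alpha-tropomyosin, rose by 1.18 ± 0.21 and passed upward on 2 further probes (1.31 each), with -0.13 ± 0.11 on another. The oxygen store Mb rose by 0.31 ± 0.07 and Mybpc1, the slow myosin-binding protein C, by 0.50 ± 0.12, though the latter's other probes gave 0.15 and -0.04. None of either list fell past the threshold, but under median scaling 2 of the fast list did, and Myh4 (0.19) and Mb (0.16) did not pass. A single fast gene fell without 3-day replicate 4, 7-day replicate 2 or 14-day replicate 3 or 4, and a single slow gene without 7-day replicate 4. The slow myosin Myh7 was not among the risers. At the neuromuscular junction no gene rose and 3 of 12 fell: Ache, the acetylcholinesterase (-0.46 ± 0.13), Chrne, the adult receptor subunit (-0.39 ± 0.09), and Rapsn, which clusters the receptor (-0.29 ± 0.06). The Ache call was lost without 3-day replicate 2 (-0.38, adjusted p = 0.0715). Other Rapsn probes gave -0.25 and -0.22 and did not pass. Without 1 array 2 to 4 of the junction list fell. Of 22 atrophy genes 1 rose, Klf15, a glucocorticoid-induced factor (0.63 ± 0.13).

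NAD and purine metabolism held some of the larger single changes. Nampt, the rate-limiting enzyme of NAD salvage, read 8.27, 8.24, 8.34 and 8.28 at 3 days and 9.48 to 10.01 later, a rise of 1.43 ± 0.09 (adjusted p = 6.32e-09), with saline at 8.16 to 8.51. Of 13 NAD and sirtuin genes it was 1 of 2 that rose, and 2 fell, among them Parp1, an NAD-consuming enzyme (-0.23 ± 0.06). A single gene of this list fell under median scaling and in 9 of the 12 fits without 1 array. In purine metabolism, where AICAR enters as its phosphate, 4 of 15 rose and 4 fell. Paics, whose product Adsl converts to the monophosphate of AICAR, rose by 1.67 ± 0.15, from 4.78, 5.2, 4.97 and 5.52 to between 6.43 and 7.18, and was detected on 1 of 4 arrays at 3 days and 8 of 8 later, so the 3-day level lay at about the background. Gart, an enzyme of earlier steps, fell by 0.32 ± 0.08 on one probe and gave -0.01 ± 0.08 on the other. Aprt, the salvage enzyme for adenine, changed by -0.30 ± 0.08. Under median scaling 1 of the purine list rose and 4 fell.

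Protein folding and turnover genes moved in both directions. Among chaperones 9 of 31 rose and 2 fell. Hspa5, the endoplasmic reticulum chaperone BiP, was not well above background at 3 days and rose at least 2.76-fold (measured means 5.01 and 6.83). The mitochondrial chaperonins Hspe1 and Hspd1 rose by 1.12 ± 0.08 and 0.64 ± 0.07, the latter with 0.01 ± 0.16 on its other probe. Dnajb4, an HSP70 cochaperone, rose by 1.63 ± 0.16, with 0.17 ± 0.14 on its second probe. Dnajb1 and Dnajb2 fell by 0.39 ± 0.09 and 0.34 ± 0.06. Of 33 proteasome genes 6 rose, led by the regulatory subunits Psmd6 (1.54 ± 0.11) and Psmc6 (1.49 ± 0.16), and 4 fell by at most 0.27. Of 22 autophagy genes 4 rose and 4 fell, with 2 falling without 3-day replicate 4 or under median scaling. Map1lc3b, the autophagosome protein LC3B, rose by 0.91 ± 0.07, from 9.63, 9.56, 9.61 and 9.49 to between 10.37 and 10.59, whereas Atg7, an enzyme needed to conjugate it, changed by -0.54 ± 0.09. Ribosomal protein genes were divided as well: 8 of 48 cytosolic ones rose and 5 fell, led by Rps3a1 (1.40 ± 0.10), and 6 of 68 mitochondrial ones rose and 8 fell. Without 1 array the cytosolic counts were 4 to 8 rising (4 without 3-day replicate 2, and 5 without 3-day replicate 1 or 3, 7-day replicate 3 or 4 or 14-day replicate 1 or 2) and 2 to 5 falling (fewest without 3-day replicate 1 or 3), and 3 rose under median scaling. The mitochondrial falls numbered 3 without 3-day replicate 3, 5 without 3-day replicate 2, 15 without background correction and 17 with the authors' scores. Gene families with near-identical copies, such as the ribosomal proteins, may share signal on a probe.

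Among antioxidant genes 4 of 26 rose and 3 fell. Txn1, thioredoxin, rose by 1.45 ± 0.09, from 6.75, 7.13, 7.06 and 7.35 to between 8.37 and 8.7, and Txnrd1, its reductase, by 1.31 ± 0.13. Catalase (Cat) rose by 0.85 ± 0.13. Keap1, the repressor of the NRF2 pathway, fell by 0.27 ± 0.06 and fell on 2 further probes, but another rose by 0.18 ± 0.06. In the insulin and mTOR list 2 of 20 rose and 3 fell. Irs2, an insulin receptor substrate, read 9.39, 9.49, 9.48 and 9.37 at 3 days and 8.65 to 9.28 later (-0.50 ± 0.11), and saline, at 8.91 to 9.22, lay with the longer arrays rather than with the 3-day ones. Eif4e, the cap-binding factor, rose by 0.93 ± 0.10.

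Clock genes had 5 of 18 rising and 1 falling, with 2 rising without 3-day replicate 2 or 3 and 3 without 7-day replicate 1 or 2 or 14-day replicate 1 or 2. The repressor Nr1d2 (REV-ERB beta) rose by 1.08 ± 0.13 and its paralog Nr1d1 fell by 0.45 ± 0.09, with -0.25 on the other Nr1d1 probe. Bhlhe40, another repressor of the clock loop, rose by 0.45 ± 0.09 and read 11.68, 11.65, 11.98 and 11.79 at 3 days and 12.05 to 12.41 later. Under median scaling it gave 0.36 and did not pass (adjusted p = 0.0511), and 2 of the list rose and 2 fell. The hour at which tissue was taken is not given in the sources used here, and its part in these values was not tested.

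Matrix and vessel genes were mixed. In the extracellular matrix list 4 of 26 rose and 5 fell, with a median of -0.21. Falls numbered 2 without 3-day replicate 1, 3 without 3-day replicate 2, 9 without 7-day replicate 3 and 8 under median scaling. Col3a1 and Col1a2, collagen genes, rose by 1.12 ± 0.21 and 0.83 ± 0.21. Col4a1, Col15a1, Lamb2 and Nid2 of the same list changed by -0.29 to -0.42. The calls of Col4a1 (-0.28), Col15a1 (-0.28) and Nid2 (-0.34) were lost without 3-day replicate 1, those of Col4a1 (-0.36) and Col15a1 (-0.34) also without replicate 2, and that of Col15a1 without replicate 4 (-0.34). Col3a1 read 6.72, 6.13, 6.05 and 5.73 at 3 days and 6.84 to 7.9 later. In the angiogenesis list 3 of 19 rose, among them Vhl, which targets hypoxia-inducible factors for degradation (1.17 ± 0.10), and 1 fell, Nos3, the endothelial nitric oxide synthase (-0.37 ± 0.10, and -0.47 and -0.32 on its other probes). In the interferon and MHC class I list 1 of 19 rose, H2-D1 (0.90 ± 0.21), and 3 fell. None of the list fell without 3-day replicate 4, and 1 fell without 3-day replicate 1 or 3, 7-day replicate 1 or 2 or 14-day replicate 1 or 4. Calcium handling had 1 of 20 rising, Calm2, a calmodulin gene (0.58 ± 0.08), and 3 falling, with 1 falling without 3-day replicate 3 or 4.

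Markers of other cells in the dissected muscle were compared in the same way, and in whole muscle fewer cells of a type and less RNA per cell cannot be told apart. Of 8 endothelial genes 1 passed, Cdh5, the adhesion protein of endothelial junctions, which fell by 0.52 ± 0.11; the summed signal of the list was 12.77 to 12.91 at 3 days, 12.67 to 12.84 at 7 days and 12.54 to 12.8 at 14 days. Kdr and Cldn5 of that list had no tested probe. Of 10 macrophage genes Adgre1 (1.08 ± 0.18), Ctss and Cd163 rose and C1qa fell in the pooled comparison, with summed signal of 10.58 to 11.22 at 3 days and 10.25 to 11.23 later. The second Adgre1 probe gave 0.24 ± 0.13. Ctss was not well above background on any 3-day array and rose at least 1.39-fold. C1qa had means of 6.13 at 3 days, 5.26 at 7 days, where no array was well above background, and 5.84 at 14 days. The 14-day difference of -0.29 did not pass (adjusted p = 0.194), nor did that between 14 and 7 days (adjusted p = 0.514). The Cd163 call was lost (0.41 to 0.56) without 3-day replicate 2, 3 or 4, 7-day replicate 2 or 3 or any 1 of the 14-day arrays. Smooth muscle and pericyte genes summed to 13.03 to 13.3 at 3 days and 12.61 to 13.02 later, and 1 of 8, Acta2, fell by 0.34 ± 0.11. This call was lost (-0.37 to -0.27) without 3-day replicate 1, 2 or 3, 7-day replicate 3 or 14-day replicate 2 or 3. With the authors' scores Acta2 did not pass either (adjusted p = 0.0613). Further Acta2 probes gave -0.38, which passed, and -0.05 and -0.11, which did not. Satellite cell genes (2 rose and 2 fell of 6, with 1 to 2 falling without 1 array) and fibroblast genes (2 rose and 1 fell of 10, with 0 to 2 falling) overlapped between groups in summed signal. How far these cells carry the changes above was not tested.

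Red cell transcripts varied from array to array. Hbb-bt, a beta-globin gene whose near-identical copies may share its signal, read 5.64, 5.74, 4.96 and 6.62 at 3 days, 8.52, 8.21, 6.59 and 8.86 at 7 days, and 8.14, 6.76, 6.6 and 5.78 at 14 days. It was high on 3 of 4 arrays at 7 days and on 1 at 14 days, and saline ranged from 5.07 to 7.49. The pooled difference of 1.69 ± 0.51 (adjusted p = 0.023) was lost without 3-day replicate 1 (1.66), 2 (1.69) or 3 (1.43). Hba-a1 and Alas2 followed the same arrays and did not pass (0.95 and 0.61). Of the 4 tested red cell genes 2 rose, the other being Fech, the ferrochelatase that completes haem in many cells (0.38), with a list median of 0.78. Further Fech probes gave 1.6 ± 0.1, which passed, and -0.05 ± 0.13, which did not. The sums of the list overlapped between groups (9.14 to 11.42 at 3 days, 10.78 to 12.84 at 7 days, 9.34 to 12.03 at 14 days).

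The same contrast in hippocampus shared no array with that in muscle. Over 11315 probes tested in both tissues, 4127 passed in hippocampus (36.5%) and 2753 in muscle. Of the probes past the threshold in muscle, 847 passed in hippocampus in the same direction, which is 30.8% of the muscle set and 20.5% of the hippocampal set, while 256 passed in the opposite direction and 1650 did not pass there. The changes correlated at 0.17 across probes, which are not independent replicates. The difference between the tissues itself passed for 2679 probes (23.7%), 1115 with a more positive change in muscle (9.85%) and 1564 with a more negative one (13.8%). This balance depended on the scaling: under median scaling the median difference over all probes was -0.37 instead of -0.05, and 446 of 5237 probes were more positive in muscle, and with the authors' scores 1158 of 3757 were.

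The largest differences were rises of muscle that hippocampus did not share. Cycs, cytochrome c, rose in muscle by 1.85 ± 0.15 on one probe, from 6.96, 7.04, 6.97 and 6.88 to between 8.03 and 9.24, and changed by -0.88 in hippocampus, a difference of 2.73 (adjusted p = 1.6e-08). Its other probe gave 0.10 ± 0.09 in muscle. Zfand6, Huwe1, a HECT-type ubiquitin ligase, Ubac1 and Selenop, a secreted selenium carrier, differed by 2.42 to 2.71. The brighter probe of Selenop gave 0.07 ± 0.09 in muscle (adjusted p = 0.59), and the other probes of Zfand6 and Ubac1 did not pass there either. In the other direction Rnf220, a RING-type ubiquitin ligase, changed by -0.58 ± 0.15 in muscle and 1.09 in hippocampus, a difference of -1.67 (adjusted p = 2.69e-08). Klhdc3, Calml4, AI837181 and Cnn3 differed by -1.56 to -1.46, and in muscle none of these 4 passed the threshold. Of the 12 largest rises in muscle, those tested in both tissues (Zfand6, Ndufa5, Trip12, Mxi1, Ubac1, Ywhae and Lypla1) differed between tissues by 1.87 to 2.71. They were chosen for their change in muscle, which is a part of that difference, so these values are a description only.

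**Figure D5:**
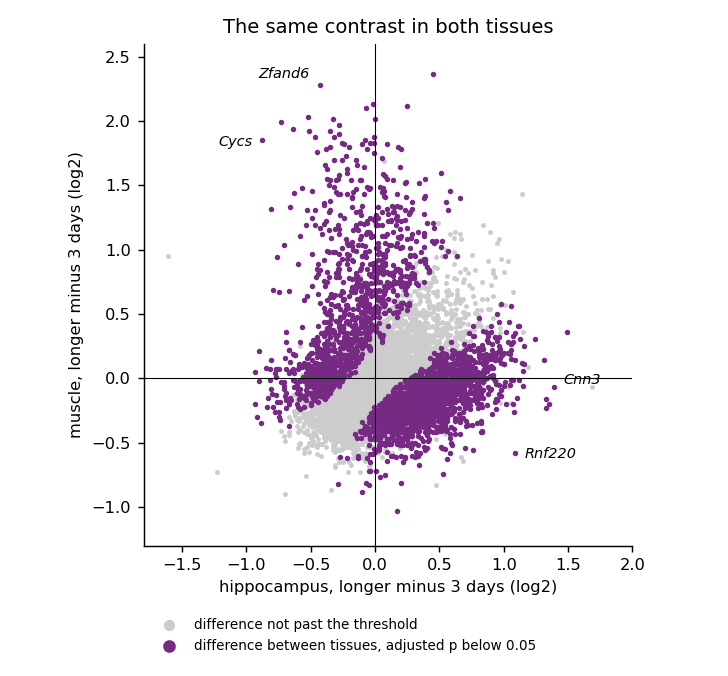
Change of each of 11315 probes with 7 and 14 days against 3 days of AICAR (log2) in hippocampus (horizontal) and muscle (vertical), purple where the difference between the tissues passed the threshold. The labelled probes of Zfand6 and Cycs rise in muscle (2.28 and 1.85) and not in hippocampus (-0.43 and -0.88), while those of Cnn3 and Rnf220 rise in hippocampus (1.39 and 1.09) and not in muscle (-0.07 and -0.58).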

How the data were processed

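Gene expression in gastrocnemius muscle was read on 16 Illumina MouseRef-8 bead arrays, 12 of them from AICAR-treated mice, and 16 arrays of hippocampus served as the second tissue. The deposited file gives each probe an intensity on a linear scale, neither normalized nor corrected for background, as its values show. Beside it stands a detection p-value against the array's negative controls, per the file headers. The authors' deposited series table holds a score per probe, which on each of the 32 arrays equals the log2 intensity minus the array's mean, divided by the array's SD. The submitters' processing notes name BeadStudio 1.6.0. Genome build and probe positions are not given in the sources used here.

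Intensities were background-corrected by normexp, with the negative-control level inferred from detection p-values and an offset of 16, quantile-normalized over the arrays of a tissue and put on the log2 scale (limma 3.58.1, R 4.3.3). The test kept probes with a detection p below 0.05 on 4 or more of the 16 muscle arrays. Of 25697 probes, 23978 carried 1 gene symbol and 1719 none. lmFit, contrasts.fit and eBayes gave each contrast from 1 mean per group, with two-sided p-values adjusted by Benjamini and Hochberg over all probes tested and a threshold of 0.05. Saline arrays entered the normalization, the detection filter, the choice of the brightest probe and the estimate of the spread, but no contrast. With the 12 AICAR muscle arrays alone, 3005 of 12521 probes passed in the pooled comparison. The tissue difference came from a joint fit of all 32 arrays with no term for the animal. Errors are the model's standard errors (SE), or SDs over 4 arrays. The number of arrays limits the precision. The procedure was tested on simulated data.

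Members and gene lists were chosen with earlier results of these data known. Named genes are the 12 largest rises and 12 largest falls among probes past the threshold whose groups did not overlap, up to 4 members of each pathway list with at least 3 members past the threshold, an AMPK and fuel panel, marker genes past the threshold, and the 5 largest tissue differences in each direction (for 14 against 7 days, the 5 smallest p). Genes outside this rule were chosen after their values were seen: Camkk2, Ndufab1, Ndufb10, Ogdh, Phka1, Phkb, Klf15, Hspd1, Dnajb1, Dnajb2, Atg7, Col1a2, Col4a1, Col15a1, Lamb2, Nid2, Hba-a1, Alas2 and those marked in the text. Same-numbered arrays of different groups correlated at -0.15 to 0.18 in their deviations from the group means over 12 pairs, and 3 of 12 arrays correlated best with their own number, so replicate numbers were not taken as pairs. Alternatives were another normalization, no background correction, the deposited scores, other filters, other variance models, fewer arrays and a fold limit.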

Additional observations from a re-analysis of the deposited data

Results flagged for a closer look

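Within groups of 4 arrays, 19 values of named genes stood apart from the other 3 by Dixon's test, out of 432 groups looked at; chance alone flags about 1 in 20 groups. At 3 days the values were 9.02 for Cat, 6.35 for Cryz and 5.4 for Mlx on replicate 1, 8.54 for Gbp2 on replicate 2, and 7.78 for Prkab1, 11.05 for Tef and 6.66 for Tmem131l on replicate 4. At 7 days they were 9.25 for Cat, 7.9 for Notch1, 7.08 for Paics and 5.7 for Rnf220 on replicate 1, 6.18 for Heyl on replicate 3 and 9.4 for Mrps15 on replicate 4. At 14 days they were 8.75 for Irs2 and 5.86 for Itpr3 on replicate 1, 10.17 for Atp5e and 8.12 for Naprt on replicate 2, and 7.97 for Ktn1 and 11.19 for Timp3 on replicate 3.

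The change with longer treatment differed between muscle and hippocampus for 2679 probes in the joint limma fit. Among named genes the muscle change minus the hippocampal change was 2.73 for Cycs, 2.71 for Zfand6, 2.59 for Huwe1, 2.55 for Ubac1, 2.42 for Selenop, 2.36 for Ywhae, 2.16 for Mxi1, 2.15 for Ndufa5, 2.02 for Lypla1 and 1.87 for Trip12. It was -1.67 for Rnf220, -1.56 for Calml4 and Klhdc3, -1.49 for AI837181 and -1.46 for Cnn3. Among the largest muscle falls it was -0.83 for Ncdn, -0.81 for Usp30, -0.78 for Srd5a3, -0.77 for Tmem131l, -0.74 for Sap30bp and -0.54 for Xrn1.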

How the results depend on the processing

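The count of 3248 probes past the threshold ranged from 2843 (median scaling) to 3938 (the authors' scores) under the other normalizations, filters, variance models and array sets tried. Requiring 1.5-fold as well left 935 probes (853 higher) for the pooled comparison, 949 at 7 days, 982 at 14 days and 1273 for the tissue difference, and median scaling raised the last from 2679 to 5237. Leaving out 1 array at a time gave 2517 to 3199 probes for the pooled comparison, 1896 to 2481 at 7 days, 1975 to 2537 at 14 days, 0 to 1 between 14 and 7 days and 2358 to 2757 for the tissue difference. With replicate number as a block, 3017, 2199, 2224, 0 and 2550 probes passed in the same order. The numbers do not mark pairs, and 5 named probes lost and 2 gained their call under the block. No named probe reversed under any alternative. Of 133 named probes past the threshold, 114 stayed so whichever array was left out, and 15 lost their call under median scaling and 54 under the fold limit; the cause was not tested. A probe near background gives only a bound, and 198 probes past the threshold were undetected on every array of one side.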
